A study of Mus musculus with 4 samples.

Results

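The SCL complex genes described here are Tal1, which encodes SCL, and 9 genes for its relatives and protein partners. They were read as loci of RYBP binding in mouse mesoderm. The 10 genes were taken by name out of 22208 protein-coding genes of the mm9 GENCODE annotation. Tal2 and Lyl1 encode close relatives of SCL, Lmo1, Lmo2 and Lmo4 encode LIM-only proteins, Ldb1 encodes the LIM domain binding protein, and Tcf3, Tcf4 and Tcf12 encode E proteins. RYBP ChIP-seq was available for 2 replicates (WT1 and WT2) of wild-type FLK1+ mesoderm, sorted from ES cell-derived embryoid bodies of strain C57Bl/6 X Sv129 at day 3.75 by the labels. Each replicate had an input sample, which is chromatin set aside before precipitation. The antibody was raised against DEDAF, another name of RYBP. The files used here give peak positions and strengths and no reads, so no depth was computed, and cell type markers could not be checked. By its own account of the libraries the study sequenced the ChIP sample with fewer peaks more deeply. The design text describes cells that were also PDGFRa-, and the other labels name FLK1+ alone, so the exact sort gate is uncertain.

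SCL is a basic helix-loop-helix factor without which no blood cells form. It binds DNA at E-boxes as a dimer with an E protein. An LMO2 and LDB1 bridge joins that dimer to GATA factors on nearby sites and brings distant elements together. RYBP belongs to non-canonical Polycomb repressive complexes, which place ubiquitin on histone H2A and are found at many CpG-rich promoters, whether the gene is silent or not. A RYBP peak at a locus therefore says nothing on its own about expression.

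All 10 loci, each taken as the gene body and 5 kb upstream, held at least 1 region of the merged RYBP list, against 57.1% of all protein-coding genes. All 10 also held one within 2.5 kb of an annotated transcription start site, against 53.4% of all genes. Every one of the 10 genes had at least 1 CpG-rich start, with 3 or more CpG per 100 bp in the 500 bp on each side. Among the 13342 genes with such a start, 81.8% had a start-site region, so the share that applies to these 10 genes is already high. Since the merged list pools the calls of both replicates, the replicates were also read separately. Start-site peaks were called in replicate 1 at 8 of the 10 genes, against 40.4% of all genes. In replicate 2 they were called at 10 of 10, against 50.5%. Both replicates had one at Tal1, Lyl1, Lmo1, Lmo2, Lmo4, Ldb1, Tcf3 and Tcf12, which makes 8 of 10 against 37.5% of all genes and 59.3% of genes with a CpG-rich start. With a −log10 q of at least 2 required in each replicate, the count was 4 of 10 (Lyl1, Lmo2, Tcf3 and Tcf12), against 28.4% of all genes. The share over genes with a CpG-rich start was not computed at this threshold, so the count is not read as an excess. Tal2 and Tcf4 rested on replicate 2 alone.

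The loci held 17 merged regions. Of these, 14 lay in a start-site window, 2 in the gene body away from any start and 1 upstream of a gene. Both replicates contributed to 10 of them, replicate 1 alone to 1 and replicate 2 alone to 6. Counted as peaks, 10 of 11 at these loci in replicate 1 overlapped a peak of replicate 2 (90.9%, exact 95% binomial interval 58.7% to 99.8%), against 69.0% of all replicate 1 peaks. Of the 16 replicate 2 peaks, 10 overlapped one of replicate 1 (62.5%, 35.4% to 84.8%), against 56.4% overall. Both intervals include the share over all peaks. They cover counting error over peaks only, count peaks of the same gene as independent and are no test.

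**Figure D1:**
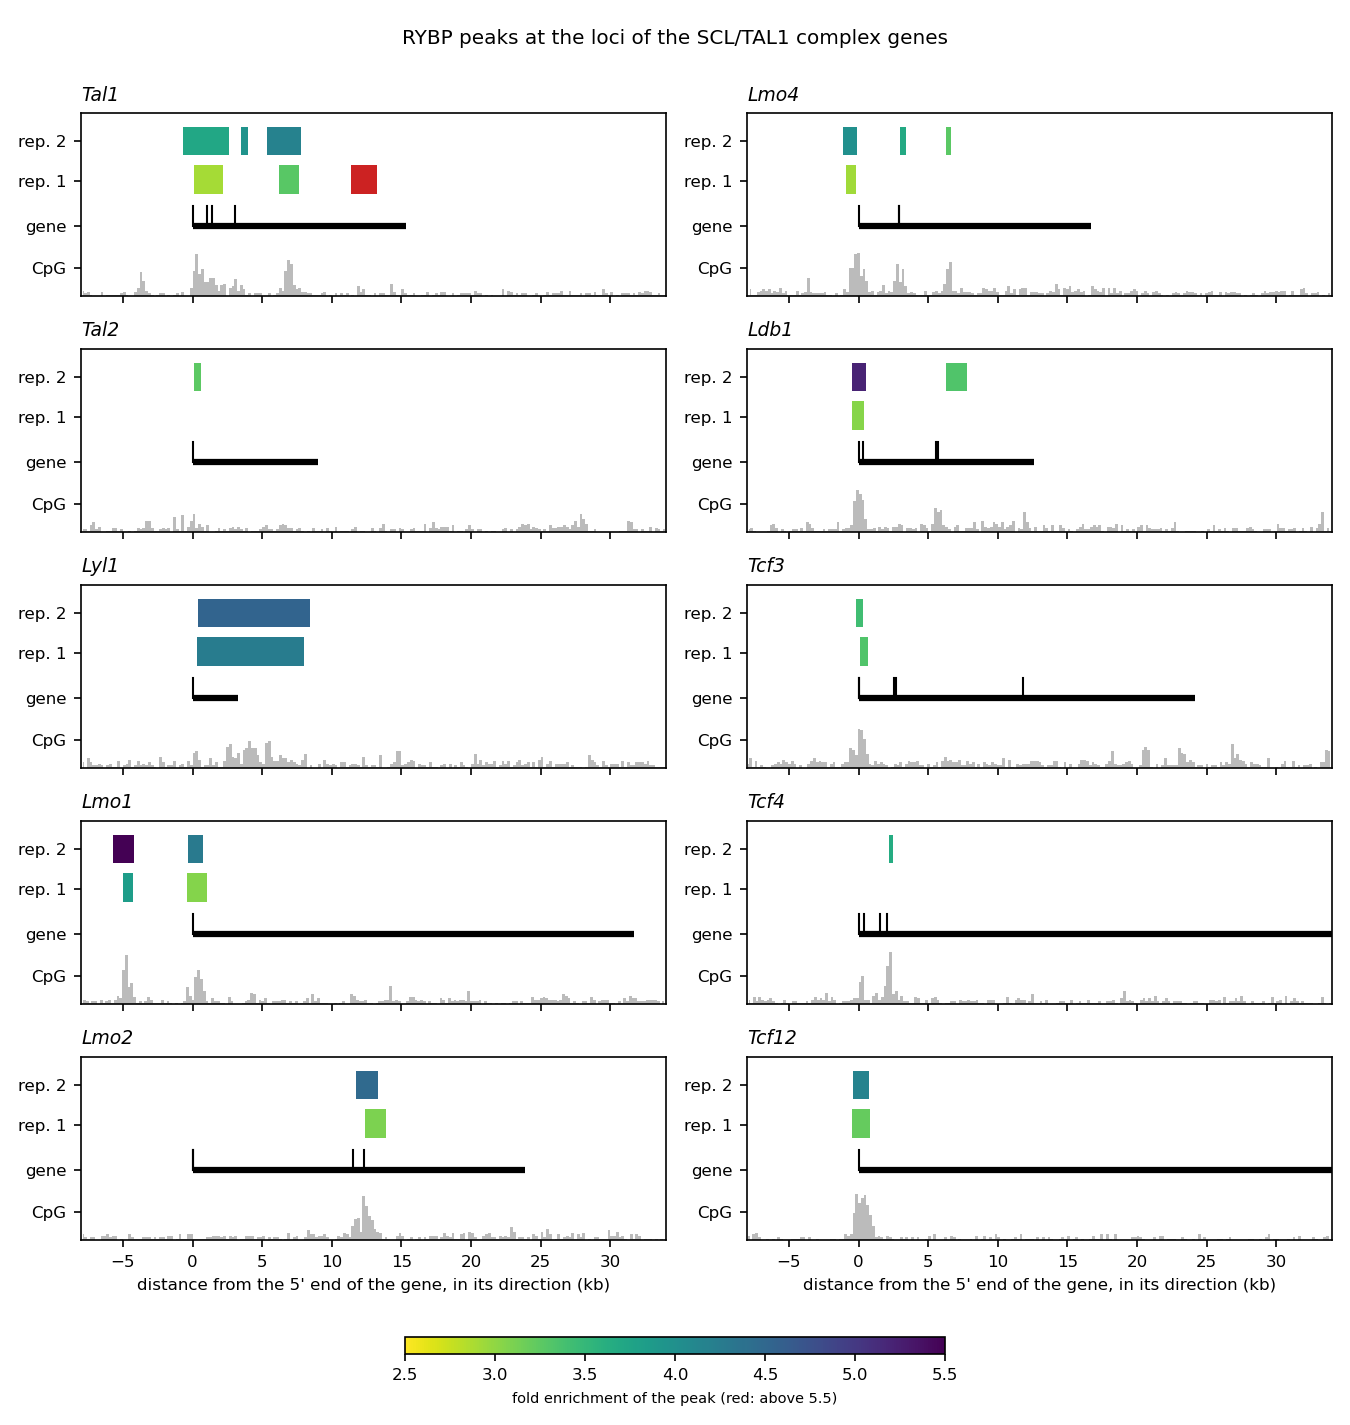
Peaks at the 10 loci, drawn to scale along the distance in kb from the 5′ end of each gene, in its direction. The upper bars are the peaks of each replicate coloured by fold enrichment, the black line is the gene with its protein-coding starts as ticks (Tcf4 and Tcf12 run past the right edge), and the grey track is CpG density in 200 bp bins, with full height at 20 per 100 bp. Most bars sit at a tick with a grey rise, and the red bar over the stop codon of Tal1 is in replicate 1 alone.

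Tal1, on the plus strand at chr4:114729031-114744360, held the most regions of the set. In the merged list, 3.43% of protein-coding genes had 4 or more regions at the locus. Tal1 had 4, which together covered 8018 bp or 39.4% of the gene body and its 5 kb upstream. Each replicate had 3 peaks there, and 2 of the 4 regions were found in both. The annotation gives the gene 4 protein-coding starts in 3 groups, where starts within 1 kb of each other form a group. The sequence just upstream of its second start group is shown because the peaks of both replicates cover it. It is in mm9 on the plus strand at chr4:114729793-114730042, with its 13 CpG in capitals.

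Tal1 upstream of second start group: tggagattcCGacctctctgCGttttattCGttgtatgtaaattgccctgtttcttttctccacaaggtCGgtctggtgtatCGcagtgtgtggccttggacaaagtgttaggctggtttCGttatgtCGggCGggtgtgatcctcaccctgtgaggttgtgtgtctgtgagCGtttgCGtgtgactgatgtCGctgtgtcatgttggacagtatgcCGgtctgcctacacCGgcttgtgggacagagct

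The first region, chr4:114728348-114731620, was 3273 bp wide and ran over the first and second start groups, with 199 bp of untranslated exon, 2391 bp of intron and 683 bp before the gene. Its fold enrichment, the linear ratio of pile-up to local background from the authors' peak caller, was 2.90 in replicate 1 and 3.71 in replicate 2. The −log10 q was 1.44 and 2.85, where the lowest value in the 2 lists is 1.00 and 1.01. In replicate 1 this was thus one of the weaker peaks, at percentile 10.9 of all peaks by fold enrichment.

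The second region, chr4:114732541-114732978, lay in an intron 428 bp from the third start group and was called in replicate 2 alone, at 3.96-fold. The third, chr4:114734386-114736819, held 446 coding bp and 1987 bp of intron around a CpG-rich stretch inside the gene (4.15 CpG per 100 bp over the region). It was called in both replicates, at 3.28-fold in replicate 1 and 4.17-fold in replicate 2. This region began 2273 bp past the third start and so reached only the edge of that start-site window.

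The fourth region, chr4:114740402-114742274, was unlike the others. It covered the end of the coding sequence and stopped short of the end of the gene, with 449 coding bp, 944 bp of 3′ untranslated sequence and 480 bp of intron, and was called in replicate 1 alone. Its fold enrichment was 11.3 and its −log10 q 34.13, which ranked 2 of the 14794 peaks of replicate 1 by either measure. The nearest peak of replicate 2 was 3582 bp away. The region had 1.07 CpG per 100 bp, whereas the first had 5.13. The strongest signal at Tal1 therefore rests on 1 library, and what set it there was not tested. The last 300 coding bases are shown because they lie inside this peak, in mm9 on the plus strand at chr4:114741031-114741330, with the stop codon in capitals. The peak reached 926 bp before that codon and 944 bp past it.

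Tal1 end of coding sequence: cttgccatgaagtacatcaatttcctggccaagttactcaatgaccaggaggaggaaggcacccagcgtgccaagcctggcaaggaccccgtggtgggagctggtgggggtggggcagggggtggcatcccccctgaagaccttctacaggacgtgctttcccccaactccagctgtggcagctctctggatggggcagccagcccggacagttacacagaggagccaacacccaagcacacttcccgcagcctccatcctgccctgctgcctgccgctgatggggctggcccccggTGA

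Outside the locus, the 100 kb upstream of Tal1 held 1 region and the 100 kb downstream held 4. The upstream one, centred at −69.4 kb from the start, overlapped an exon of Cmpk1 and was called in both replicates (3.73-fold and 5.0-fold). Downstream, a region 32.6 kb past the start lay on an exon of Pdzk1ip1 (2.93-fold in replicate 2). Intergenic regions followed at 38.5 kb (2.91-fold, replicate 1) and 40.3 kb (3.04-fold, replicate 2). The last, at 77.3 kb, overlapped exons of Cyp4x1 and Gm12835 (3.45-fold in replicate 2). Each of these 4 was called in 1 replicate only.

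Lyl1, which encodes the relative of SCL that can cover part of its work in adult blood, carried the broadest region of the set. A single region of 8122 bp, chr8:87225666-87233787, began 310 bp past its only start and ran on for 5173 bp beyond the gene, which lies on the plus strand at chr8:87225356-87228614. Only 116 of the 22409 merged regions were wider, and 2.87% of them reached 4 kb, against a median width of 766 bp. Both replicates called it nearly whole, 7692 bp wide in replicate 1 and 8034 bp wide in replicate 2. The fold enrichment was 4.25 and 4.55, with a −log10 q of 6.29 and 6.33. Lyl1 had the highest start-site value of the 10 genes in replicate 1.

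The whole of this region also lies within the annotated gene Nfix on the opposite strand, chr8:87223775-87324243, and 3966 bp of it are Nfix exon. The nearest protein-coding start of Nfix was 63508 bp away, and that of Trmt1, the closest start of another gene, 3369 bp away. Peak positions cannot tell which of the overlapping genes the signal belongs to. The region covered 837 coding bp of Lyl1.

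Tal2, a relative known from midbrain development and T cell leukaemia, lies on the plus strand at chr4:53792577-53801584. Its 1 region, chr4:53792673-53793181, was 509 bp wide, lay in an intron 96 bp from the start and was called in replicate 2 alone (3.26-fold, −log10 q 1.65). The nearest peak of replicate 1 was 148025 bp away. The start had 3.30 CpG per 100 bp, the lowest of all start groups of the 10 genes that had a region within 500 bp.

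**Figure D2:**
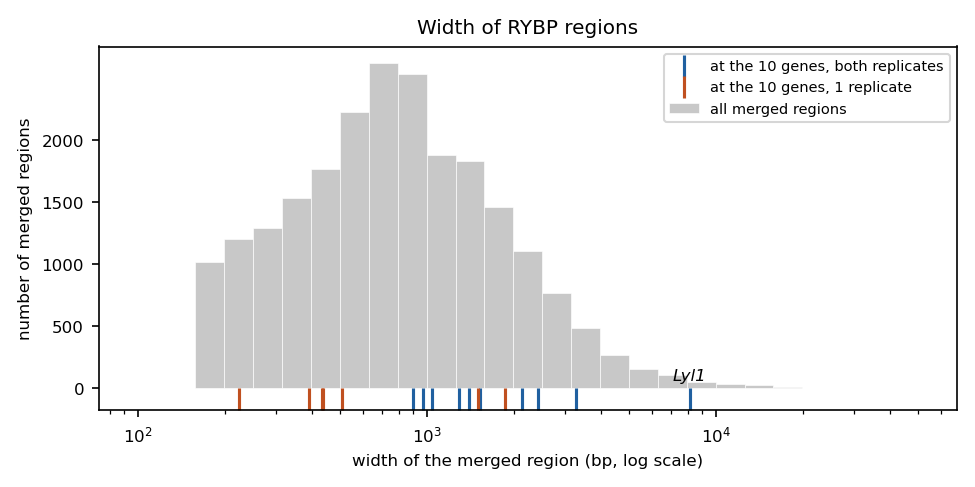
Histogram of the width of all 22409 merged regions on a log scale in bp, with the 17 regions at the 10 genes as ticks, blue where both replicates had a peak and orange where 1 did. The 8122 bp region at Lyl1 stands apart at the right, and the narrowest tick is the 224 bp region at Tcf4.

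The LIM-only genes encode adaptors with no DNA binding of their own, and Lmo2 is the member that blood formation needs. Lmo2, on the plus strand at chr2:103798143-103822035, was annotated with 9 protein-coding starts in 2 groups that differed in both sequence and RYBP. The distal group, 2 starts at 103798143 to 103798152, had 0.999 CpG per 100 bp, and no region lay within 11746 bp of it. The proximal group, 7 starts at 103809685 to 103810444, had 4.70 CpG per 100 bp and was overlapped by the only region of the locus, chr2:103809898-103812041. The first starts of the group lay before the region, and the replicate 1 peak began past the last of them, at 103810532. The region was called at 3.09-fold in replicate 1 and 4.48-fold in replicate 2. The 250 bases before each group are shown for comparison, in mm9 on the plus strand, with CpG in capitals. The distal one, chr2:103797893-103798142, has 4 CpG, and the proximal one, chr2:103809435-103809684, has 8. Both stretches lie outside the region.

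Lmo2 upstream of distal starts: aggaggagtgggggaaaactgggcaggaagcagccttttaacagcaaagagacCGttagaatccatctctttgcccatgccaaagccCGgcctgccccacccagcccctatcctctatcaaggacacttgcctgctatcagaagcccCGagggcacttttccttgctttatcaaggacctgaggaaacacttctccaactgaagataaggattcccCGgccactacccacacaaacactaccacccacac
Lmo2 upstream of proximal starts: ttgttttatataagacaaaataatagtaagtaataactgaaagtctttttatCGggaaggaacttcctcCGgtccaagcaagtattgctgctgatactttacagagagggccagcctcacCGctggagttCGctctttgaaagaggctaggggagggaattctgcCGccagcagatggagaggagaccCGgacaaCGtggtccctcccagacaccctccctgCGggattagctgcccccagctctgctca

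Counted from the 5′ end of the gene alone, Lmo2 would have had no start-site region. Another annotated gene, 4931422A03Rik, runs across the same stretch on the opposite strand, with no exon inside the region.

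Lmo1, on the minus strand at chr7:116282086-116313822, carried 2 regions that both replicates called. One, chr7:116312790-116314191, spanned the start, at 3.06-fold in replicate 1 and 4.28-fold in replicate 2. The other, chr7:116318013-116319540, lay 4191 bp upstream of it in sequence with no annotated gene. It was the stronger of the pair in each replicate, at 3.84-fold and 5.49-fold, and at 5.49 had the highest replicate 2 value of the 17 regions. Its CpG density was 6.74 per 100 bp, close to the 6.49 of the region at the start.

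Lmo4, expressed far more widely than Lmo2 and able to compete for LDB1, lies on the minus strand at chr3:143851494-143868184. A region of 1046 bp, chr3:143868271-143869316, lay 87 bp upstream of its 5′ end and was called in both replicates, at 2.93-fold and 4.01-fold. The replicate 1 value sat close to the calling threshold, with a −log10 q of 1.07. Replicate 2 alone added a 434 bp region 45 bp from the inner start group, chr3:143864803-143865236 (3.69-fold), which covered 210 coding bp. It also added a 393 bp intronic region 3373 bp from the inner starts, chr3:143861516-143861908 (3.27-fold). The intronic one had 11.2 CpG per 100 bp.

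Regions in the gene body away from the starts were thus found at 2 of the 10 genes, Tal1 and Lmo4, against 13.2% of all genes. Neither was found in both replicates.

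Ldb1, the dimerising partner of the LIM-only proteins, lies on the minus strand at chr19:46107083-46119704. The region over its outer starts, chr19:46119190-46120157, was called at 3.05-fold in replicate 1 and 5.21-fold in replicate 2, the widest gap between replicates of the set. The same region reached into the 5′ end of the neighbouring gene Pprc1, which runs the other way, with 782 bp inside that gene, although the nearest protein-coding start of Pprc1 was 10872 bp away. A second region, chr19:46111888-46113389, lay in an intron 582 bp past the inner start group and was called in replicate 2 alone (3.33-fold). Its CpG density of 1.13 per 100 bp was close to that of the last-exon region of Tal1, whereas the inner start group itself had 5.89.

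The E proteins dimerise with SCL and with many other tissue-specific helix-loop-helix factors, and are expressed in most tissues. Tcf3, which encodes E2A, lies on the minus strand at chr10:79872259-79896392 and had 1 region, chr10:79895695-79896593, over its outermost starts. The values of the replicates were close, at 3.33-fold and 3.42-fold. The other start groups of Tcf3, with 1.20 and 0.999 CpG per 100 bp, had no region within 500 bp, and the outermost group had 9.69.

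Tcf12, which encodes HEB, lies on the minus strand at chr9:71692059-71959626. Its region, chr9:71958804-71960093, covered the outer start and was called at 3.21-fold in replicate 1 and 4.16-fold in replicate 2. With 267568 bp of gene and a single region of 1290 bp, 0.473% of the locus was covered. The outer start had 12.9 CpG per 100 bp, the most of any start group here, and the inner start 0.400, with no region within 124318 bp. The 250 bases before each are shown to set a CpG-rich start beside a CpG-poor one of the same gene, in mm9 on the minus strand. The outer one, chr9:71959627-71959876, has 38 CpG and lies wholly in the region, and the inner one, chr9:71743891-71744140, has 0.

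Tcf12 upstream of outer start: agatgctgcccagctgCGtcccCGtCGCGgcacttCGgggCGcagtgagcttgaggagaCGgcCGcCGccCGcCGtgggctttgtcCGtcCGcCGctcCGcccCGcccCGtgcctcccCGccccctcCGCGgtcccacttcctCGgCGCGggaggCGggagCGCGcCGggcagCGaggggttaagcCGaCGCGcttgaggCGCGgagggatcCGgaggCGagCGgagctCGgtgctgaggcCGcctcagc
Tcf12 upstream of inner start: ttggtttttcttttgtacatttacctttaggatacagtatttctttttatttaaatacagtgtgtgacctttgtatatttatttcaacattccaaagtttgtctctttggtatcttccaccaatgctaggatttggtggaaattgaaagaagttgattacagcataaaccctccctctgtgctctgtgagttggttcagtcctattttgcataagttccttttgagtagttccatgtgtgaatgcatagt

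Tcf4, the longest of the 10 genes at 343822 bp, lies on the plus strand at chr18:69503800-69847621. It had 1 region of 224 bp, chr18:69506017-69506240, which was called in replicate 2 alone (3.65-fold, −log10 q 2.47) and lay 160 bp past the second start group. This was the narrowest of the 17 regions and had the highest CpG density, 15.2 per 100 bp. The nearest peak of replicate 1 was 147536 bp away.

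Start-site strength was then compared across the 10 genes, taking the highest fold enrichment in the start-site windows of each. At Tal1 the mean was 3.54 ± 0.895 (SD, n = 2 here and below), but it averaged different peaks. The replicate 1 value, 2.90, came from the peak over the starts near the 5′ end. The replicate 2 value, 4.17, came from the peak inside the gene that reached only the edge of a start-site window. The replicate 1 peak there, at 3.28-fold, lay outside the window. The peak near the 5′ end had 2.90 and 3.71 in replicates 1 and 2. Those values would lower the mean and SD of Tal1, so its place in the order below is uncertain. Lyl1 averaged 4.40 ± 0.217 and Ldb1 4.13 ± 1.53. The LIM-only genes were close to each other, with Lmo2 at 3.78 ± 0.983, Lmo1 at 3.67 ± 0.856 and Lmo4 at 3.47 ± 0.765. Among the E proteins, Tcf12 averaged 3.69 ± 0.673 and Tcf3 3.38 ± 0.0604. In the order of the means given here, from Lyl1 to Tcf3, every step between neighbours was smaller than the larger SD of the pair. Since replicate 2 was generally higher, the genes were also ordered within each replicate. Lyl1 lay above Tal1, Lmo1, Lmo2, Lmo4, Tcf3 and Tcf12 in both, and above Ldb1 in replicate 1 but not in replicate 2. With 2 replicates no test was made.

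The replicates themselves differed, mostly in one direction. Fold enrichment was higher in replicate 2 at 8 of 8 genes with a value in both, and the same held for 77.8% of the 8336 genes of the annotation with both values. The ratio of replicate 2 to replicate 1 ran from 1.03 at Tcf3 to 1.71 at Ldb1, with a median of 1.38, against 1.14 over all those genes. In replicate 1 the median start-site value of the 8 genes was 3.08, below the lower quartile of 3.16 over all genes with a start-site peak, whose median was 3.53. In replicate 2 the median of the 10 genes was 4.17, above the median of 3.90 over all genes and below the upper quartile of 4.55. The set thus stood below the lower quartile in replicate 1 and above the median in replicate 2. Both positions depended on how a start-site value was taken. With the peak nearest to the start the replicate 2 median of the set was 3.93, and with the 5′ end of the gene alone 4.01. A window of 5 kb moved the replicate 1 median of the set above 3.16. The values over all genes were computed for the main setting only, so the contrast is not read as a property of the set.

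**Figure D3:**
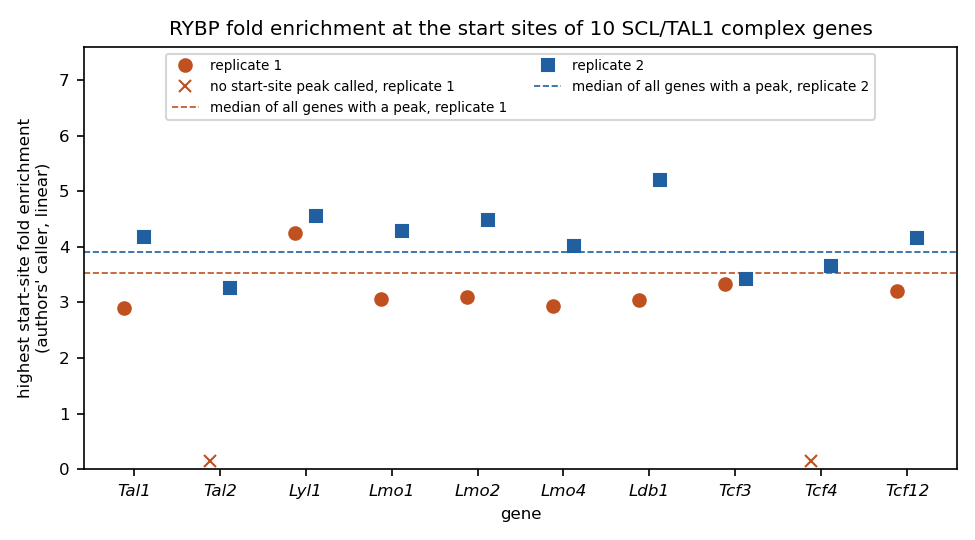
Highest start-site fold enrichment (linear, from the authors' caller) of each gene, circles for replicate 1 and squares for replicate 2, with crosses near the axis where no start-site peak was called in replicate 1. Dashed lines mark the median of all genes with a peak, 3.53 and 3.90, and the square lies above the circle at all 8 genes with both.

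CpG density was the only sequence feature set against the position of the regions, and at the start groups it went with it. The 10 genes have 20 start groups, and 7 of the genes have more than 1. A region lay within 500 bp of 13 of the 16 CpG-rich groups and of 0 of the other 4, namely the distal group of Lmo2, the inner groups of Tcf3 and the inner start of Tcf12. Of the 13, the third group of Tal1, the start of Tal2, the inner group of Lmo4 and the second group of Tcf4 rested on replicate 2 alone. Over all genes, 79.6% of CpG-rich start groups and 6.86% of the others had such a region. The 3 CpG-rich groups without one were the inner group of Ldb1, whose nearest region was 582 bp away, and the outermost and innermost groups of Tcf4, at 1853 bp and 246831 bp. Across all start groups the share with a region rose with each step in CpG density, from 1.30% below 1 CpG per 100 bp to 50.6% between 3 and 4 and 94.9% at 8 and over. At their 5′ ends the 10 genes had a median of 6.19 CpG per 100 bp, against 4.10 over all genes. Their start groups thus followed the pattern of the whole annotation, and nothing particular to the SCL complex was read from them.

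**Figure D4:**
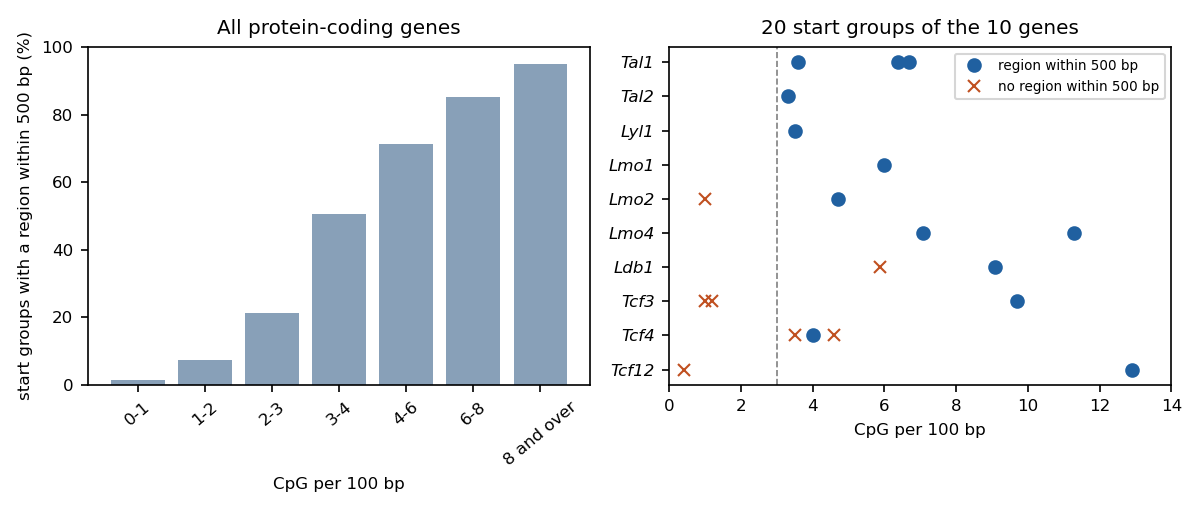
Left, share in percent of start groups of all protein-coding genes with a merged region within 500 bp, by CpG per 100 bp. Right, the 20 start groups of the 10 genes by CpG per 100 bp, circles with a region within 500 bp and crosses without, where the 4 groups left of the dashed line at 3 are all crosses.

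Motifs of the complex were searched on both strands in the 300 bases from 250 before to 50 after every protein-coding start. The letters CAGATG, a form of E-box that SCL and E protein dimers prefer, were found at 2 of the 10 genes, and at 23.0% of all 22208 genes. At Tal1 they lay at the first and second start groups, and at Lmo2 at the proximal group, in the stretch printed above, which lies before the region. The general E-box CANNTG, which includes the former, was found at 9 of the 10 genes, Ldb1 being the exception, and at 79.1% of all genes. The GATA site AGATAA was found at 3, namely at the first start of Tal1, the distal group of Lmo2 and the innermost start of Tcf3, and at 15.4% of all genes. A match gives letters in a window and no binding.

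Other genes of the same complexes were read as lists of known partners, 28 in all. A start-site region was found at 25 of them and a start-site peak in both replicates at 20, next to 53.4% and 37.5% of all genes. Most of the 28 had a CpG-rich start, and over all genes with such a start the shares were 81.8% and 59.3%. Gata1, Erg, Gfi1b and the 4 close relatives had no CpG-rich start, so these last shares do not apply to them. Gfi1b had a start-site peak in both replicates all the same. The share over genes without a CpG-rich start was not computed. The counts per list below are small and are not read as an excess or a lack. The Id genes encode helix-loop-helix proteins without a DNA-binding part, which hold E proteins off DNA. All 4 had a start-site peak in both replicates. Id2 was lowest at 3.05-fold and 3.68-fold, whereas Id1 was highest in replicate 1 (3.81-fold) and Id4 in replicate 2 (4.70-fold). The Ssbp genes encode proteins that protect LDB1 from degradation, and 3 of 3 had one in both, with Ssbp2 highest at 4.90-fold and 4.68-fold.

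Among the DNA-binding partners of SCL, 4 of 6 had a start-site peak in both replicates, namely Gata2, Gata3, Runx1 and Fli1. Gata2, the GATA factor of early blood progenitors, was called at 4.20-fold and 4.94-fold, with 16949 bp of its locus covered by a single region. At Runx1, needed for the first definitive blood stem cells, 7 separate regions were found, at up to 3.80-fold and 4.49-fold near a start. Erg had a start-site peak in replicate 1 alone (2.82-fold), and Gata1, the erythroid GATA factor, had no region at its locus. Its highest start had 1.80 CpG per 100 bp.

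Of 11 cofactor genes, 10 had a start-site region and 8 had a peak in both replicates. Hdac2, a histone deacetylase, was highest at 5.55-fold and 5.90-fold, above every start-site value of the 10 SCL complex genes. Cbfa2t3, which encodes the corepressor ETO2, had 7 regions over 12424 bp (4.20-fold and 4.37-fold). Hdac1 had no region although its start had 6.99 CpG per 100 bp, and Ep300 had the lowest replicate 2 value of the list at 3.20-fold. Of 4 close relatives outside the 10 genes, 1, Nhlh2 (4.64-fold and 3.93-fold), had a start-site peak in both replicates, Nhlh1 and Lmo3 had one in a single replicate (3.05-fold in replicate 1 and 3.22-fold in replicate 2) and Ldb2 had none. None of these 4 had a CpG-rich start. For reference, the gene of the sorting marker FLK1, Kdr, was called at 3.38-fold and 4.0-fold, and Pdgfra at 4.03-fold and 4.01-fold.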

How the data were processed

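RYBP ChIP-seq of 2 replicates was analysed from peak lists. The input samples, 2 in number, carried no processed file used here, so no ChIP was set against input. According to the methods and the processing notes, the authors aligned paired-end reads to mm9 with Bowtie 1.1.2b, removed duplicates and called broad peaks with MACS2 2.0.10 in each replicate. The deposited lists give a fold enrichment (a linear ratio), −log10 p, −log10 q and a score equal to 10 times −log10 q. The peak lists carry no depth per sample, and none was used. A merged list of 22409 regions has positions only. All 22409 equalled a region of the union of both lists, with the starts of replicate 2 moved by 1 bp. The labels give day 3.75, the methods a slightly later day, and the design text names SCL ChIP in FLK1+ PDGFRa- cells, where title and antibody name RYBP and the sample labels FLK1+ cells.

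Loci, start-site windows and start groups were read from the GENCODE annotation on chromosomes other than Y and the mitochondrial one, and CpG from the mm9 genome, with Python 3.11.15, numpy 2.4.6 and scipy 1.17.1. An overlap was at least 1 bp. Interval scripts were first run on simulated peaks with planted positions. No test was made, since ChIP samples formed 1 group. The genes and lists, named by membership of the complex, were chosen with earlier results of these data known. From each list of other genes, values were given for up to 4, mainly those with the highest or lowest start-site values. Cbfa2t3 was an exception, since Runx1t1 was higher in both replicates (4.33-fold and 4.97-fold) and was left out above. Gfi1, 1 of 29 listed, had no protein-coding entry and was not used here. Alternatives were stricter thresholds, other windows, start definitions and overlaps, and each replicate alone.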

Additional observations from a re-analysis of the deposited data

How the results depend on the processing

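Of 50 recomputed values, 43 stayed within set limits and 7 did not. The limit for counts was 1.5 times the value in the report, and for matched shares the binomial interval. For fold medians it was the SD of the 2 replicate medians, and for CpG the SD over the 10 genes. These limits are wide, so staying within them shows little. Median CpG per 100 bp, for example, was 4.92 with 1 kb on each side in place of 6.19. With −log10 q of at least 2, 6 of 13 replicate 2 peaks were matched (46.2%), in place of 62.5%. The count of genes with a start-site peak in both replicates was 4 in place of 8 with −log10 q of at least 2 in each, leaving Lyl1, Lmo2, Tcf3 and Tcf12. With a fold enrichment of at least 3 in each it was 6, as Tal1 and Lmo4 were lost. The count with a gene-body region away from the starts, 2, was 0 among regions found in both replicates, 1 with −log10 q of at least 2 (Tal1), 1 with a window of 5 kb (Tal1) and 4 when the 5′ end of the gene alone was the start (Tal1, Lmo2, Lmo4 and Ldb1). Leaving out either replicate gave 1, Lmo4 without replicate 1 and Tal1 without replicate 2. Genes with a region at the locus, and at a start, numbered 10 without replicate 1 and 8 without replicate 2, where Tal2 and Tcf4 were lost. Stricter −log10 q left 9, without Tal2. With at least 50% of the region inside the window Lyl1 was lost. A peak in each replicate within 1 kb of a start, an alternative chosen after the data were seen, left 8. No paired analysis was possible because 1 group of ChIP samples was analysed and no test was made. No depth entered these values, and a missing peak is a call not made, with no measure of absence.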
